A study of Arabidopsis thaliana with 18 samples.

Results

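Ubiquitin in *Arabidopsis* is made from polyubiquitin genes and from ubiquitin extension genes, and 9 of them were described here by the transcript isoforms that TIF-seq recorded at their loci. The 5 polyubiquitin genes were *UBQ3* (AT5G03240), *UBQ4* (AT5G20620), *UBQ10* (AT4G05320), *UBQ11* (AT4G05050) and *UBQ14* (AT4G02890). The 4 extension genes were *UBQ1* (AT3G52590), *UBQ2* (AT2G36170), *UBQ5* (AT3G62250) and *UBQ6* (AT2G47110). The genes were chosen by locus, not by their values, from 27444 coding genes on chromosomes 1 to 5 of TAIR10, of which 14380 had at least 1 TIF-cluster in any list. On the strand of the 9 genes, 686 TIF-clusters were listed in the 6 lists together.

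TIF-seq reads the 5′ and the 3′ end of the same capped and polyadenylated RNA molecule, and a TIF-cluster joins read pairs whose ends both lie close together. The seedlings were 14 days old and grew at 22 °C with 16 h of light and 18 °C nights. The lists come from *hen2-2* seedlings after 3 h at 4 °C, Col-0 wild type after 3 h at 4 °C, *hen2-2* at 22 °C, *spt16-1* at 22 °C, *ssrp1-2* at 22 °C, and Col-0 wild type at 22 °C. *HEN2* encodes an RNA helicase that works with the nuclear exosome, and *SPT16* and *SSRP1* encode the subunits of the histone chaperone FACT. Each list pools 2 libraries, so there is no value per plant or per library, and no test between groups was possible. Intervals below are 95% intervals for counting error alone. The 3 mutant comparisons at 22 °C and the wild-type cold comparison share 1 wild-type list.

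A polyubiquitin gene encodes ubiquitin units joined head to tail, which deubiquitinating enzymes cut into single ubiquitin molecules. An extension gene encodes 1 ubiquitin fused to a ribosomal protein, L40 in *UBQ1* and *UBQ2* and S27a in *UBQ5* and *UBQ6*. Cutting it releases ubiquitin together with a subunit of the ribosome. Polyubiquitin genes are known as stress-responsive sources of ubiquitin, and *UBQ10* is a widely used reference gene and source of a strong promoter.

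The lists held between 410655 (*hen2-2* at 4 °C) and 924907 (*spt16-1*) read pairs in 31998 to 49901 TIF-clusters, each of at least 3 read pairs. *HEN2* had 0 read pairs in both *hen2-2* lists, against 4 in wild type at 22 °C and 0 in wild type at 4 °C. *SSRP1* had 0 in *ssrp1-2*, against 5 in wild type, while *SPT16* had 31 in *spt16-1*, against 30 in wild type. *CBF3*, a cold-induced transcription factor gene, had 324 read pairs in *hen2-2* and 410 in wild type at 4 °C, and 0 in every list at 22 °C. The leaf gene *RBCS1A*, for the small subunit of Rubisco, was not even between lists, and its part in the results was not tested. It had 9414 RPM (read pairs per 1000000 of the list) in *hen2-2* and 1443 in wild type at 4 °C, and 5664 in *hen2-2*, 2339 in *spt16-1*, 1563 in *ssrp1-2* and 5048 in wild type at 22 °C. Of the other leaf markers, *RCA* and *LHCB1.3* stayed within 2-fold in all 6 comparisons, as did the root gene *PYK10*. Read pairs of the root gene *EXPA7* numbered 3 to 14 per list, and the root gene *COBL9* had none. The cold markers *KIN1* and *COR15A* did not follow *CBF3* in every comparison. In wild type, *KIN1* had 4.35 RPM at 4 °C (3 read pairs) and 75.9 at 22 °C, and *COR15A* had 69.6 and 65.2. In *hen2-2*, *KIN1* had 107 RPM at 4 °C and 110 at 22 °C, and *COR15A* had 90.1 and 37.8.

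The coding sequences of the polyubiquitin genes are runs of units of 76 codons. On TAIR10, *UBQ10* spans chr4:2717977-2720308 on the plus strand, with 6 units over chr4:2718559-2719932. *UBQ4* has 5 units (gene chr5:6973053-6975009, minus strand). There are 4 units in *UBQ3* (chr5:771660-773515, minus strand) and in *UBQ14* (chr4:1278530-1280166, minus strand), and 3 in *UBQ11* (chr4:2588004-2589437, minus strand). All 22 units encode the same 76 residues, with 0 residue differences in 231 pairs of units, while their DNA differed at 6 to 53 positions of a unit, with a median of 42. The closest units within a gene were units 3 and 4 of *UBQ10*, which differed at 16 positions, and the closest of all were unit 1 of *UBQ10* and unit 1 of *UBQ14*, which differed at 6. Positions 11 to 70 of the 6 *UBQ10* units are shown because a start can be assigned to a unit only where the units differ. Capitals mark bases that differ from unit 3.
UBQ10 unit 1: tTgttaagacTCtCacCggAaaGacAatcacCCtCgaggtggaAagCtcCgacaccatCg
UBQ10 unit 2: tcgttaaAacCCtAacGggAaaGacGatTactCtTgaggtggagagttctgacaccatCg
UBQ10 unit 3: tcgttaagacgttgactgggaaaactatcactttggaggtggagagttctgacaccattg
UBQ10 unit 4: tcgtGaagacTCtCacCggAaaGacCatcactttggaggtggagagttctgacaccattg
UBQ10 unit 5: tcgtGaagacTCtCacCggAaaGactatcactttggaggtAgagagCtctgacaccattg
UBQ10 unit 6: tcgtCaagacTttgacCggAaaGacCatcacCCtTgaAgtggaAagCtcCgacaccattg
These stretches lie on the plus strand at chr4:2718569-2718628, chr4:2718797-2718856, chr4:2719025-2719084, chr4:2719253-2719312, chr4:2719481-2719540 and chr4:2719709-2719768. Unit 4 differed from unit 3 at 8 of these positions, and unit 1 at 15.

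The authors kept only uniquely aligned reads, so the number of exact copies of a stretch in the genome bears on what could be counted. In *UBQ10*, 54.7% of the 25-nt windows that begin in the coding sequence and 86.8% of the 50-nt windows occur once in the genome. For 50-nt windows the share was 97.2% in *UBQ3*, 97.7% in *UBQ4*, 78.6% in *UBQ11* and 86.5% in *UBQ14*. In the extension genes it was 100% in *UBQ1* and *UBQ2*, and 98.5% in *UBQ5* and *UBQ6*. These windows bear on reads that begin inside the coding sequence. Most read pairs at these genes had both ends outside it, where exact copies were not counted. The windows therefore do not show whether the level of a gene was lowered. Whether reads were dropped at these genes, and how far the other read of a pair made an alignment unique, was not tested.

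Summed over their genes, the polyubiquitin genes took a larger share of the read pairs of a list in the cold than at 22 °C and the extension genes a smaller share, in both genotypes. Levels are given in RPM, not divided by length, because each read pair stands for the ends of 1 molecule. The polyubiquitin genes summed to 8392 RPM in *hen2-2* and 8934 in wild type at 4 °C. At 22 °C they summed to 5171 in *hen2-2*, 6206 in *spt16-1*, 5520.1 in *ssrp1-2* and 5155 in wild type. The extension genes summed to 1162 in *hen2-2* and 1452 in wild type at 4 °C. At 22 °C they summed to 2133 in *hen2-2*, 1546 in *spt16-1*, 1893 in *ssrp1-2* and 2333 in wild type. The cold lists thus had the 2 highest polyubiquitin sums and the 2 lowest extension sums.

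In wild type the polyubiquitin sum was 1.73-fold (interval 1.67 to 1.80) at 4 °C over 22 °C, and the extension sum was 0.622-fold (0.576 to 0.672). In *hen2-2* these ratios were 1.62-fold (1.55 to 1.699) and 0.545-fold (0.491 to 0.603). All 9 genes together took 9553 RPM in *hen2-2* and 10386 in wild type at 4 °C, and 7303, 7752, 7413 and 7488 in *hen2-2*, *spt16-1*, *ssrp1-2* and wild type at 22 °C.

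**Figure D1:**
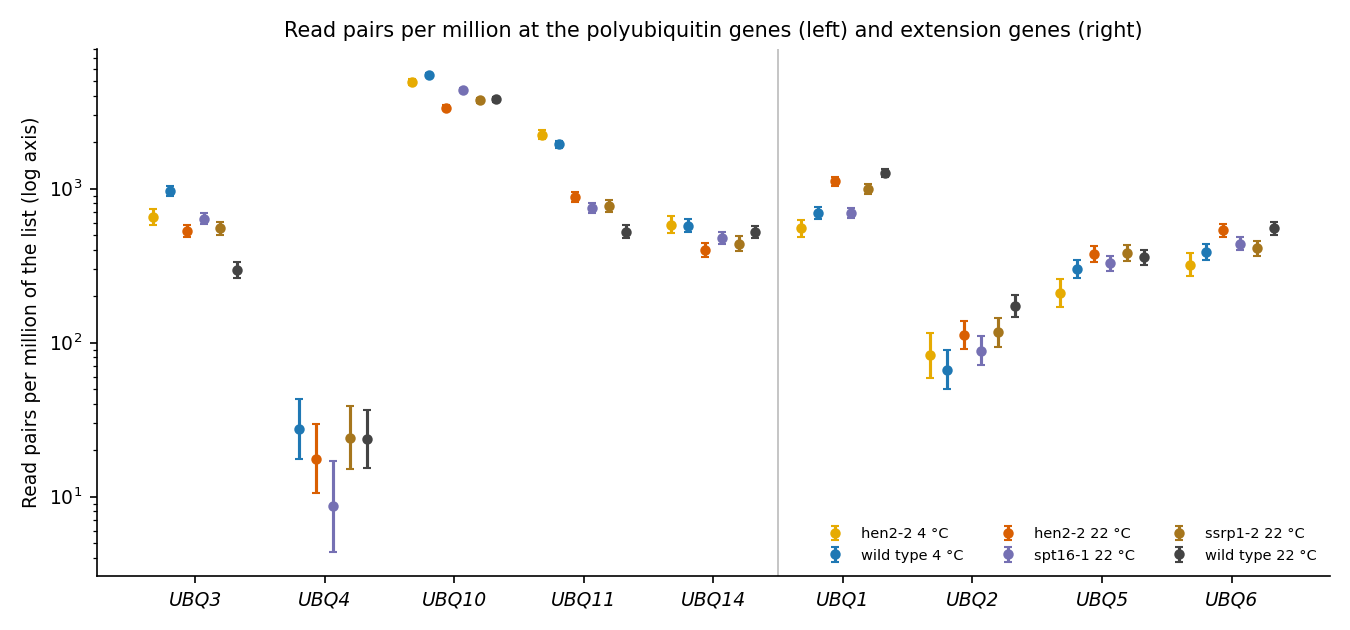
RPM of each list (log axis) at the 5 polyubiquitin genes and the 4 extension genes, with 1 point per list and Wilson 95% intervals for counting error. *UBQ10* lies between 3346 and 5431 in every list, *UBQ3* and *UBQ11* have their lowest point in wild type at 22 °C, and *UBQ4* has no point for *hen2-2* at 4 °C because no TIF-cluster was listed there.

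*UBQ10* led the family in every list. It had 4919 RPM in *hen2-2* and 5431 in wild type at 4 °C, and 3346 in *hen2-2*, 4334 in *spt16-1*, 3738 in *ssrp1-2* and 3789 in wild type at 22 °C. It ranked between 14 and 33 among the 8864 to 11447 coding genes with a TIF-cluster in a list. Of the polyubiquitin read pairs, *UBQ10* took 58.6% in *hen2-2* and 60.8% in wild type at 4 °C, against 64.7% in *hen2-2* and 73.5% in wild type at 22 °C. The other polyubiquitin genes together therefore took a larger share in both cold lists.

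*UBQ11* had the largest ratio between cold and 22 °C among the members in both genotypes. It had 2235 RPM in *hen2-2* and 1936 in wild type at 4 °C, and 878 in *hen2-2*, 749 in *spt16-1*, 769 in *ssrp1-2* and 525 in wild type at 22 °C. The ratio was 3.68-fold (3.31 to 4.11) in wild type and 2.55-fold (2.31 to 2.82) in *hen2-2*. At 22 °C every mutant list lay above wild type, by 1.67-fold (1.48 to 1.89) in *hen2-2*, 1.43-fold (1.26 to 1.61) in *spt16-1* and 1.46-fold (1.29 to 1.66) in *ssrp1-2*.

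*UBQ3* had 655 RPM in *hen2-2* and 968 in wild type at 4 °C, and 530.03 in *hen2-2*, 637 in *spt16-1*, 552 in *ssrp1-2* and 295 in wild type at 22 °C. Wild type at 22 °C was the lowest of the 6 lists and wild type at 4 °C the highest. The ratio of 4 °C over 22 °C was 3.28-fold (2.83 to 3.81) in wild type and 1.24-fold (1.06 to 1.44) in *hen2-2*. At 22 °C, *UBQ3* was 1.79-fold (1.53 to 2.11) in *hen2-2*, 2.16-fold (1.86 to 2.51) in *spt16-1* and 1.87-fold (1.59 to 2.20) in *ssrp1-2* relative to wild type. At 4 °C it was 0.677-fold (0.585 to 0.781) in *hen2-2* relative to wild type, the opposite direction.

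*UBQ14* varied least among the 8 members compared, and its ratio of 4 °C over 22 °C was 1.46-fold (1.23 to 1.73) in *hen2-2* and 1.099-fold (0.957 to 1.26) in wild type. It had 582 RPM in *hen2-2* and 572 in wild type at 4 °C, and 399 in *hen2-2*, 477 in *spt16-1*, 438 in *ssrp1-2* and 521 in wild type at 22 °C. *UBQ4* had 19 read pairs in wild type at 4 °C, and 14 in *hen2-2*, 8 in *spt16-1*, 17 in *ssrp1-2* and 20 in wild type at 22 °C. None was listed in *hen2-2* at 4 °C, whose list is the shallowest, and TIF-clusters under 3 read pairs are not in the lists. *UBQ4* was under the minimum of 30 read pairs for a comparison in all 6 cases.

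Among the extension genes, *UBQ1* was the most abundant. It had 550.34 RPM in *hen2-2* and 694 in wild type at 4 °C, and 1110.4 in *hen2-2*, 693 in *spt16-1*, 988 in *ssrp1-2* and 1254 in wild type at 22 °C. The 4 °C over 22 °C ratio was 0.496-fold (0.426 to 0.574) in *hen2-2* and 0.554-fold (0.496 to 0.617) in wild type. In *spt16-1* it was 0.553-fold (0.5004 to 0.610) relative to wild type. *UBQ2*, which encodes the same ribosomal protein, had 82.8 RPM in *hen2-2* and 66.7 in wild type at 4 °C, and 112, 88.7, 116 and 172 in *hen2-2*, *spt16-1*, *ssrp1-2* and wild type at 22 °C. Its ratio of 4 °C over 22 °C was 0.388-fold (0.272 to 0.543) in wild type and 0.739-fold (0.482 to 1.11) in *hen2-2*, where the interval holds 1. All of the *UBQ2* values rest on 34 to 145 read pairs.

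*UBQ6* had 319 RPM in *hen2-2* and 389.8 in wild type at 4 °C, and 535, 438, 408 and 550.34 in *hen2-2*, *spt16-1*, *ssrp1-2* and wild type at 22 °C. *UBQ5* had 209 in *hen2-2* and 301 in wild type at 4 °C, and 375, 327, 380.01 and 357 in *hen2-2*, *spt16-1*, *ssrp1-2* and wild type at 22 °C. The cold lists were thus the lowest for both genes that encode S27a. For *UBQ5* in wild type, however, the ratio of 0.844-fold had an interval that holds 1 (0.704 to 1.01).

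**Figure D2:**
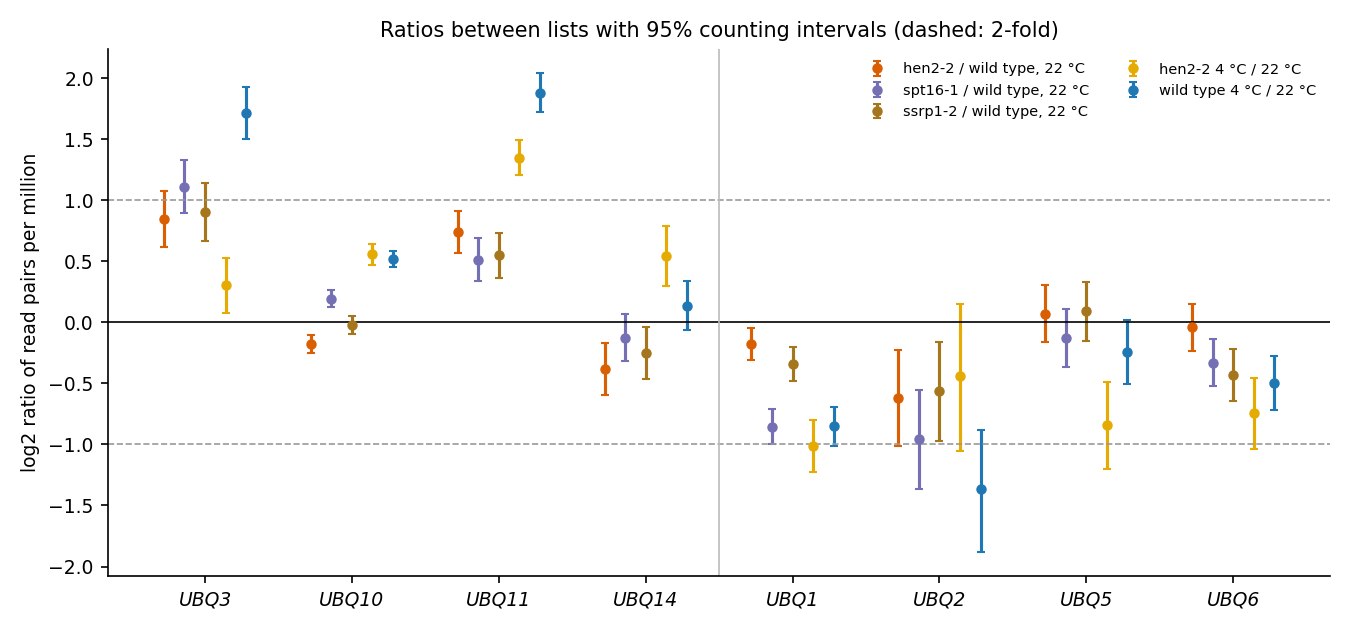
log2 ratios of RPM at 8 members (*UBQ4* is left out as under 30 read pairs), with 95% exact conditional intervals for counting error and dashed lines at 2-fold. Above the upper dashed line lie *UBQ3* and *UBQ11* in the wild-type cold comparison (1.71 and 1.88), *UBQ11* in that of *hen2-2* (1.35) and *UBQ3* in *spt16-1* (1.11), and below the lower one lie *UBQ2* in the cold in wild type (-1.37) and *UBQ1* in the cold in *hen2-2* (-1.01).

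Few members passed 2-fold, and the count is read against all coding genes with at least 30 read pairs in the larger list. In wild type at 4 °C over 22 °C, *UBQ3* and *UBQ11* were higher by over 2-fold, 2 of 8 members compared, where 14.0% of 4207 genes were. *UBQ2* was lower by over 2-fold, 1 of 8, where 11.5% of genes were. In *hen2-2* at 4 °C over 22 °C, *UBQ11* was higher, 1 of 8, where 7.65% of 3881 genes were, and *UBQ1* was lower, 1 of 8, where 17.7% were. The *UBQ1* value lay next to the threshold and fell within 2-fold when lists were scaled by size factors or when TIF-clusters under 5 read pairs were left out.

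In *spt16-1* over wild type, *UBQ3* passed 2-fold, 1 of 8 members, with a background of 12.7% higher and 7.35% lower among 4640 genes. *UBQ2* lay just inside it, at a log2 ratio of -0.96, and passed it at -1.07 with the minimum per TIF-cluster raised to 7 read pairs in both lists. No member passed 2-fold in *hen2-2* over wild type at 22 °C (background 10.7% higher and 8.23% lower), in *ssrp1-2* over wild type (11.2% and 11.7%) or in *hen2-2* over wild type at 4 °C (5.96% and 17.2%). The median log2 ratio of the 4 polyubiquitin genes compared was 1.12 in the wild-type cold comparison and 0.55 in that of *hen2-2*, beside medians over all genes of 0.02 and -0.25. For the 4 extension genes these medians were -0.68 and -0.79.

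The other ubiquitin loci had few read pairs. *UBQ7*, which encodes ubiquitin fused to the ubiquitin-like modifier RUB, had 23 to 38 read pairs in each list. Another gene that encodes ubiquitin fused to S27a, AT1G23410, had 5 to 8 in 5 lists and none in *hen2-2* at 4 °C. *RUB1*, which encodes another such fusion with RUB, had 3 read pairs in *hen2-2* at 4 °C and 3 in wild type at 22 °C, and none elsewhere. *UBQ8*, *UBQ9*, *UBQ12* and *UBQ13* had no TIF-cluster in any list.

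Of 16 genes for the enzymes that attach and remove ubiquitin, 9 to 12 had enough read pairs in each comparison, and at most 1 passed 2-fold in each direction. Over all genes compared, 5.96% to 17.7% passed it per direction, and 1 of 9 to 12 lies within that range. *UBC28*, a ubiquitin-conjugating enzyme (E2) gene, had 197 RPM in *hen2-2* and 249 in wild type at 4 °C, and 98.2, 157, 227 and 83.03 in *hen2-2*, *spt16-1*, *ssrp1-2* and wild type at 22 °C. It was past 2-fold in the cold in both genotypes, in *hen2-2* only just, and in *ssrp1-2*. *UBA1*, one of the ubiquitin-activating enzyme (E1) genes, had 99.8 RPM in *hen2-2* and 36.2 in wild type at 4 °C, against 136 in wild type and 66.6 in *ssrp1-2* at 22 °C. *UBC1* was lower in *hen2-2* than in wild type at 22 °C (11.3 against 42.7), and *UBC35* was lower in *hen2-2* than in wild type at 4 °C (39.0 against 98.5). *UBP12*, a deubiquitinase gene, had 46.6 RPM in *hen2-2* and 22.5 in wild type at 22 °C, and 7.31 in *hen2-2* at 4 °C. These *UBP12* values rest on 37, 19 and 3 read pairs, and those of *UBC1* on 9 in *hen2-2* and 36 in wild type.

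Among 553 genes with at least 100 read pairs in every list, the pattern most like that of the summed polyubiquitin level over the 6 lists was that of AT1G44770 (Pearson r of log2 values 0.997), followed by *BT2* (0.971) and AT1G62510 (0.970). The 6 points share the scaling to list totals, and 2 of them are the cold lists.

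Most read pairs at the 9 genes came from full-length isoforms, whose ends enclose the whole span of the coding sequence on the genome. TIF-seq reads only the ends, so splicing between them is not seen. The annotation holds 7 different coding sequences for *UBQ10*, 3 for *UBQ14* and 2 each for *UBQ4* and *UBQ11*. A full-length isoform therefore need not carry every unit of these genes. The full-length share at the polyubiquitin genes was 93.6% in *hen2-2* and 93.6% in wild type at 4 °C, and 94.2%, 93.7%, 95.7% and 92.8% in *hen2-2*, *spt16-1*, *ssrp1-2* and wild type at 22 °C. At the extension genes it was 97.7% and 95.8% at 4 °C, and 93.4%, 95.7%, 96.5% and 96.5% at 22 °C, in the same order of lists. Over all coding genes the share was 82.6%, 88.8%, 86.2%, 88.2%, 89.7% and 85.6%, lower than that of the 9 genes in every list.

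The most used start of the full-length isoforms lay far ahead of the coding sequence in polyubiquitin genes and close to it in extension genes. It was 461 nt before the first coding base in *UBQ3*, 477 nt in *UBQ4*, 374 nt in *UBQ10*, 399 nt in *UBQ11* and 361 nt in *UBQ14*. In *UBQ1*, *UBQ2*, *UBQ5* and *UBQ6* it was 23, 32, 11 and 29 nt. These distances are counted on the genome, any introns included, so they are not lengths of RNA. The listed starts lay close together, with 84.6% (*UBQ4*) to 100% (*UBQ2*) of the full-length read pairs within 20 nt of the most used start over the 6 lists. Each read pair takes the listed start of its TIF-cluster, which joins read pairs within 20 nt, so the spread of single starts is not shown.

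The most read full-length isoform spanned 1606 to 1616 nt of genome at *UBQ3*, depending on the list, 1831 to 1842 nt at *UBQ4*, 1928 to 1945 nt at *UBQ10*, 1217 to 1296 nt at *UBQ11* and 1456 to 1490 nt at *UBQ14*, introns included. It spanned 1197 to 1258 nt at *UBQ1*, 1067 to 1080.0 nt at *UBQ2*, 656 to 688 nt at *UBQ5* and 643 to 703 nt at *UBQ6*. At *UBQ3* this isoform held 96.2% to 99.0% of the full-length read pairs. At *UBQ10* it held 61.9% to 82.8%, and at *UBQ11*, with 8 to 13 full-length TIF-clusters per list, 34.3% to 72.1%. The part that the merging of read pairs into TIF-clusters plays in these shares was not tested.

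The stretch before the start differed in motif content between both kinds of gene. A TATA box (TATAAA, searched on both strands) lay 29 to 36 nt before the most used start, as listed, in 6 genes, namely *UBQ3*, *UBQ10*, *UBQ11*, *UBQ14*, *UBQ1* and *UBQ2*. At any place within 200 nt before the start, it was found in 7 of the 9 genes (in *UBQ5* at 158 nt) and in 43.3% of 8298 genes. The share of all genes with a TATA box at 29 to 36 nt was not computed. A telo box (AAACCCTA, both strands), common before genes for ribosomal proteins, was found within 200 nt in all 4 extension genes and in none of the 5 polyubiquitin genes, and in 5.89% of the 8298 genes. The 30 nt around each box are shown with the box in capitals, 45 to 16 nt before the start for the TATA box and 75 to 46 nt before it for the telo box.
UBQ3 TATA box: tttggtttgcgaTATAAAgaagaccttcgt
UBQ10 TATA box: tttcttcttcttcttcTATAAAacaatacc
UBQ11 TATA box: tttttgcttcTATAAAtcaaatacccaaag
UBQ14 TATA box: ttcttcttcTATAAAttaataacctaagac
UBQ1 TATA box: attgacataTATAAAcccgcctcctccttg
UBQ2 TATA box: tggataaagTATAAAgcttcattttttaca
UBQ1 telo box: cccaatattagcaAAACCCTAgacgcgtac
UBQ2 telo box: ttgtaataatcaacacaAAACCCTAagaaa
UBQ5 telo box: acgtaattgagctaagAAACCCTAgaggtc
UBQ6 telo box: agcgagctccaAAACCCTAgtttctcaacc
These stretches lie at chr5:773373-773402 (minus strand), chr4:2718140-2718169 (plus), chr4:2589375-2589404 (minus), chr4:1280041-1280070 (minus), chr3:19505600-19505629 (plus), chr2:15172076-15172105 (plus), chr3:19505570-19505599 (plus), chr2:15172046-15172075 (plus), chr3:23037052-23037081 (plus) and chr2:19344597-19344626 (plus). *UBQ1* held a second telo box, 13 nt before its start.

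Of the other motifs searched in the same 200 nt on both strands, the core of the cold-response element (CCGAC) was present in *UBQ11* and *UBQ14*, each 66 nt before the start, and in *UBQ3*, 199 nt before it. It was found in 13.7% of all genes. The site II element (GGCCCA, in 19.5% of genes) was present in *UBQ4*, *UBQ1*, *UBQ2* and *UBQ5*, and the core of the heat shock element (GAANNTTC, in 7.12%) in none of the 9 genes. A match says only that these letters are present.

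At *UBQ10* a few TIF-clusters ended far past the gene, all at or near the minimum of 3 read pairs. Only their ends were read, and whether each is a single RNA that runs through was not tested. In 5 lists, 8 TIF-clusters of 3 to 5 read pairs each began 364 to 366 nt before the coding sequence and ended 3378 to 4105 nt after it, with a genomic length of 5116 to 5845 nt. The end at 3819 to 3823 nt was recorded in wild type at 4 °C, and in *hen2-2*, *spt16-1* and wild type at 22 °C. These TIF-clusters overlapped no other coding gene on the strand. None was listed in *hen2-2* at 4 °C. In that list 1 TIF-cluster touched *UBQ1* but covered more of another gene and was counted there. There was no TIF-cluster on the opposite strand of any member in any list.

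A smaller share of read pairs started inside the coding sequence. At the polyubiquitin genes it was 5.17% (4.48 to 5.96) in *hen2-2* and 6.29% (5.71 to 6.93) in wild type at 4 °C. At 22 °C it was 4.58% (3.98 to 5.26) in *hen2-2*, 6.27% (5.67 to 6.93) in *spt16-1*, 4.21% (3.63 to 4.89) in *ssrp1-2* and 7.09% (6.36 to 7.89) in wild type. At 22 °C the intervals of *hen2-2* and *ssrp1-2* lay below that of wild type, and that of *spt16-1* overlapped it. At *UBQ10* alone, the interval of *hen2-2* at 22 °C (5.74 to 7.63) overlapped that of wild type (7.30 to 9.20). That of *ssrp1-2* at *UBQ10* (5.115 to 6.93) lay below it.

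At the extension genes the order was different. The share was 2.31% (1.29 to 4.08) in *hen2-2* and 4.19% (3.12 to 5.62) in wild type at 4 °C. At 22 °C it was 6.14% (5.09 to 7.38) in *hen2-2*, 4.27% (3.34 to 5.44) in *spt16-1*, 2.92% (2.14 to 3.97) in *ssrp1-2* and 3.15% (2.47 to 4.02) in wild type. Here the interval of *hen2-2* at 22 °C lay above that of wild type. Over all coding genes 10.5% in *hen2-2* and 8.73% in wild type at 4 °C, and 8.98%, 8.84%, 7.97% and 10.9% in *hen2-2*, *spt16-1*, *ssrp1-2* and wild type at 22 °C, started inside.

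The lists differ in depth, and a minimum of 3 read pairs is a smaller share of a deeper list. With the minimum per TIF-cluster scaled to the total of a list (3 read pairs in *hen2-2* at 4 °C and 6 or 7 in the others), the polyubiquitin share was 2.63% in *hen2-2*, 3.44% in *spt16-1*, 1.68% in *ssrp1-2* and 4.61% in wild type at 22 °C. It was then 5.17% in *hen2-2* and 4.68% in wild type at 4 °C, so the order of those 2 lists turned round. The extension share was then 2.31% in *hen2-2* and 1.90% in wild type at 4 °C, where the order turned round too, and 4.43% in *hen2-2* and 1.37% in wild type at 22 °C. The study's methods state that 5′ ends called by TIF-seq are biased towards the 3′ ends of genes and that the authors kept TIF-clusters with a start supported by TSS-seq. How far this filter worked at these genes was not tested.

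**Figure D3:**
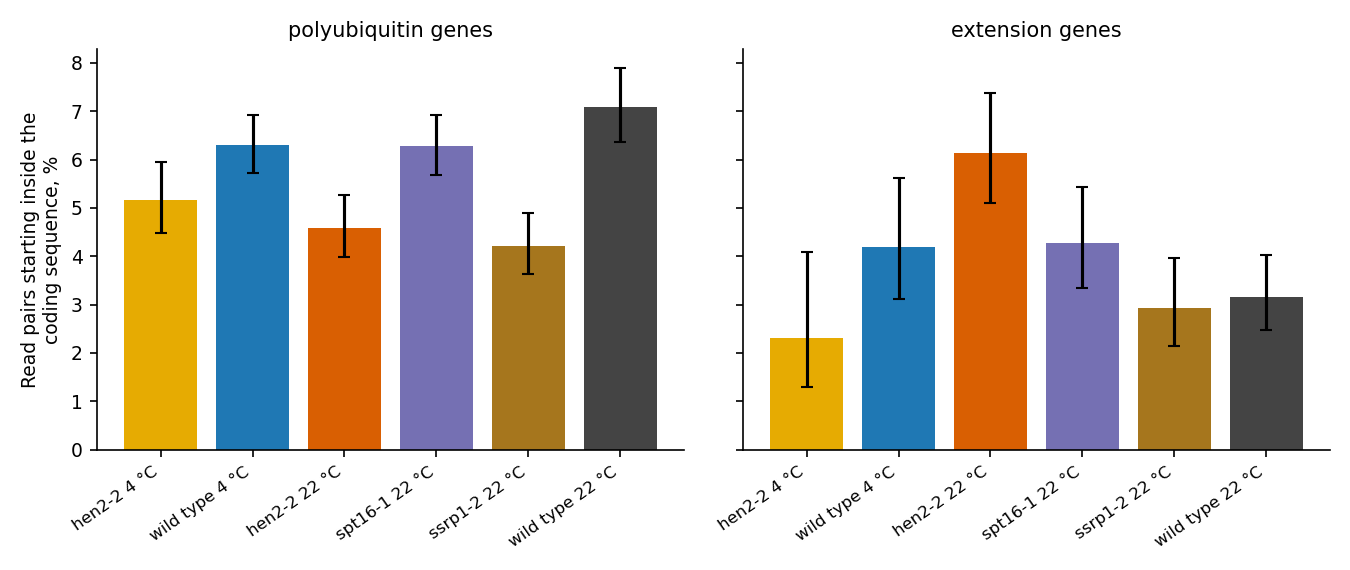
Percent of read pairs that start inside the coding sequence, per list, at the polyubiquitin genes (left) and the extension genes (right), with Wilson 95% intervals for counting error. At the polyubiquitin genes wild type at 22 °C has the highest bar (7.09%), and at the extension genes *hen2-2* at 22 °C has it (6.14%).

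Single genes differed widely. *UBQ10* had internal starts in every list, with 6.39% of its read pairs in *hen2-2* and 8.40% in wild type at 4 °C, and 6.62%, 7.83%, 5.96% and 8.20% in *hen2-2*, *spt16-1*, *ssrp1-2* and wild type at 22 °C. It carried 85.3% of the internal read pairs of all polyubiquitin genes. At *UBQ3* internal starts were listed in 3 of 6 lists, at 5.24% in wild type at 4 °C, 5.77% in *spt16-1* and 14.9% in wild type at 22 °C, and none was listed in either *hen2-2* list or in *ssrp1-2*. In wild type at 22 °C the *UBQ3* share rests on 37 read pairs in 3 TIF-clusters. *UBQ11* ranged from 0.554% in *ssrp1-2* to 4.47% in *hen2-2* at 4 °C, *UBQ14* from 0.680% in *spt16-1* to 3.35% in *hen2-2* at 4 °C, and *UBQ4* had none.

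Of the extension genes, *UBQ5* had by far the highest share. It was 9.30% in *hen2-2* and 14.4% in wild type at 4 °C, and 20.5%, 10.9%, 11.9% and 12.96% in *hen2-2*, *spt16-1*, *ssrp1-2* and wild type at 22 °C. In *hen2-2* at 22 °C this share had an interval of 16.3% to 25.4%, and in wild type one of 9.62% to 17.2%. *UBQ2* had no internal start in any list. Among genes with at least 100 read pairs, the median share was between 0.945% and 3.72% per list, and in wild type at 22 °C 213 of 1374 genes had a larger share than *UBQ5* and 312 a larger one than *UBQ10*.

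The internal starts of *UBQ10* were not spread evenly over its 6 units. Of 1353 read pairs in 212 TIF-clusters, 114 started in unit 1, 84 in unit 2, 434 in unit 3, 336 in unit 4, 166 in unit 5 and 219 in unit 6. Units 3 and 4 together took 56.9%. Unit 3 had the most read pairs in 5 lists and 1 fewer than unit 4 in *ssrp1-2*, with 35 in *hen2-2* and 118 in wild type at 4 °C, and 60, 112, 39 and 70 in *hen2-2*, *spt16-1*, *ssrp1-2* and wild type at 22 °C. All 212 TIF-clusters ended past the coding sequence, and they were 156 to 1532 nt long. At *UBQ11*, 67 of 102 internal read pairs started in the last of 3 units, while at *UBQ3* they started in units 1 to 3 (51, 43 and 12 read pairs).

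Positions are those of the starts as listed, which may lie a few bases inside the RNA. A pyrimidine followed by a purine, the pair of bases at which transcription usually starts, was most frequent not at the listed starts but 6 nt before them in *spt16-1* (52.7% of TIF-clusters), *ssrp1-2* (52.7%) and wild type at 22 °C (51.0%), and 5 nt before them in *hen2-2* at 22 °C (41.3%). In the cold lists it peaked at both 4 and 6 nt before, with 36.4% and 30.6% in *hen2-2* and 34.0% and 35.2% in wild type, while at the listed starts the share was 19.9% to 21.9% in all 6 lists. The peaks lay at the same distances on both strands, and every distance given from a start carries this uncertainty. Why the listed starts lie there was not tested.

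Positions were counted from 1 at the first coding base, and starts within 5 nt of the next were joined. *UBQ10* then had 28 internal start regions present in at least 3 lists, and 5 of them were present in all 6 lists. The 28 regions held 84.0% of the internal read pairs. The 212 TIF-clusters lie over 1374 coding positions, so starts of several lists can be joined by their density alone. How many of the regions come from this joining was not tested. The largest, at positions 469 to 504 in unit 3, had 17 read pairs in *hen2-2* and 74 in wild type at 4 °C, and 39, 66, 29 and 49 in *hen2-2*, *spt16-1*, *ssrp1-2* and wild type at 22 °C. The next, at 836 to 873 in unit 4, had 19 and 60 at 4 °C and 24, 46, 30 and 36 at 22 °C in the same order of lists. The region at 942 to 956 in unit 5 held 89 read pairs in all, that at 1300 to 1329 in unit 6 held 62, and that at 725 to 733 in unit 4 held 44.

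**Figure D4:**
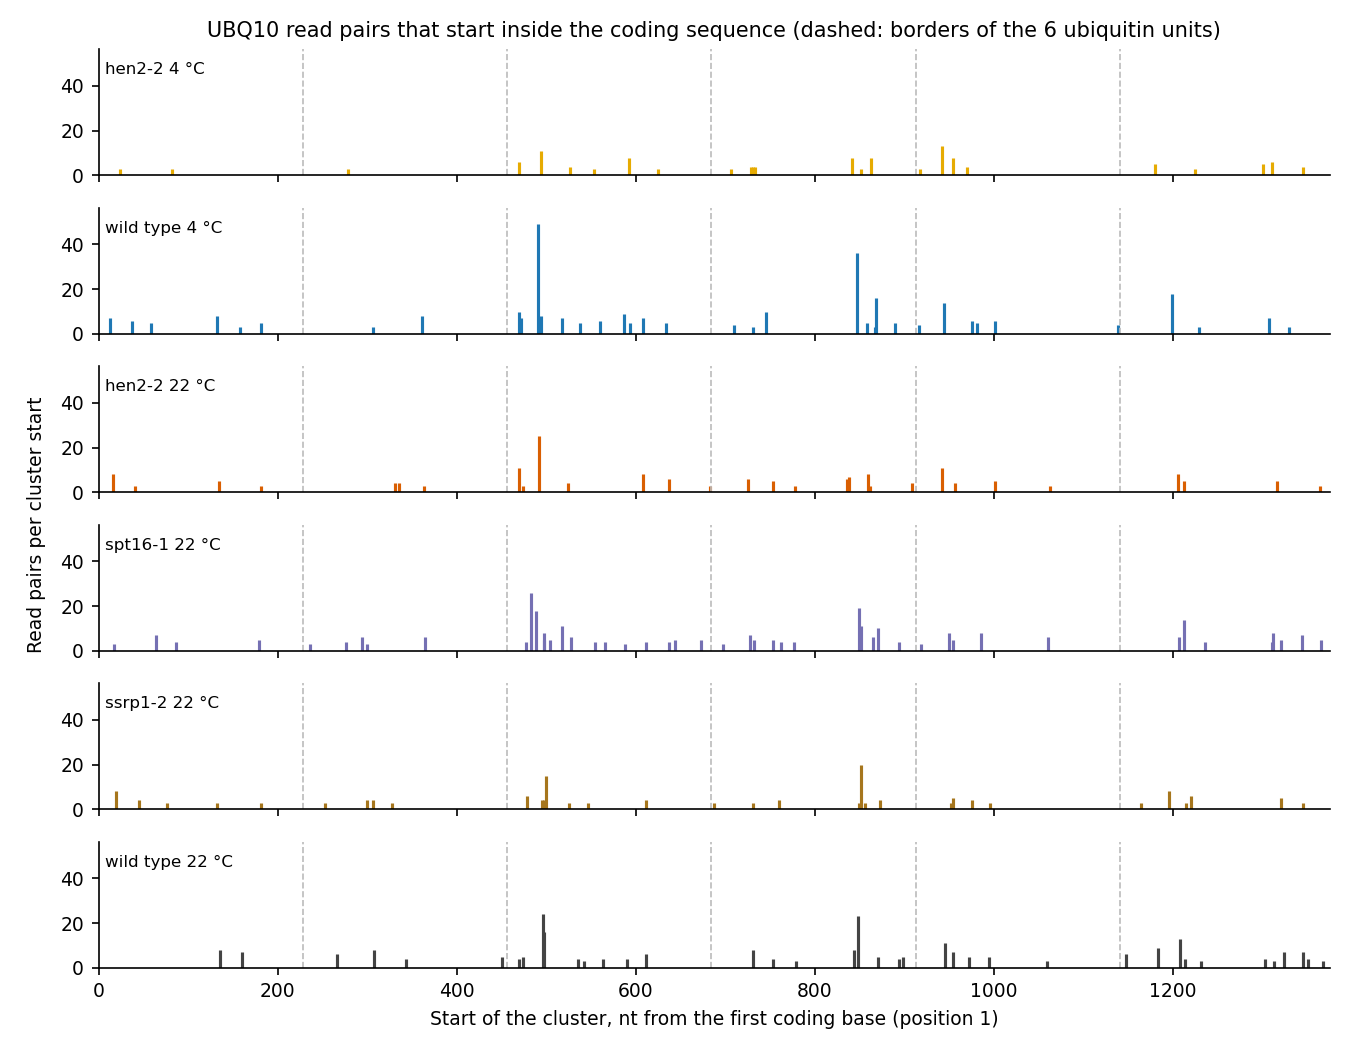
Read pairs of *UBQ10* TIF-clusters by the position of their start, counted from the first coding base, in the 6 lists, with dashed lines at the borders of the 6 ubiquitin units. Clusters of starts recur in every list at positions 469 to 504 and 836 to 873, while units 1 and 2 hold few.

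The 30 nt around the most read start of each of these 5 regions are shown, with the bases from the listed start onwards in capitals.
UBQ10 position 491: cgttgactgggaaaaCTATCACTTTGGAGG
UBQ10 position 731: agaccatcactttggAGGTGGAGAGTTCTG
UBQ10 position 847: cttgaagatggaagaACTTTGGCTGACTAC
UBQ10 position 954: cggaaagactatcacTTTGGAGGTAGAGAG
UBQ10 position 1311: tggacgtactttggcCGACTACAACATCCA
They lie on the plus strand at chr4:2719034-2719063, chr4:2719274-2719303, chr4:2719390-2719419, chr4:2719497-2719526 and chr4:2719854-2719883. Within the unit these starts fell at positions 35, 47, 163, 42 and 171. Those of units 3, 4 and 5 at 35, 47 and 42 are neighbours in the repeat, whereas the start of unit 4 at 163 and that of unit 6 at 171 lie near the far end. Each region is wider than the single position shown, and the lists differ in the exact position. Position 491 was listed in wild type at 4 °C only, with 49 read pairs, and so was position 847, with 36. The most read starts of the 28 regions fell at 25 different positions of the unit. These are counted to the single base, so the count does not show whether the wider regions share places in the repeat.

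Starts were recorded at unique and at repeated stretches alike. Of the 212 internal TIF-clusters of *UBQ10*, 121 (57.1%) began with a 25-nt stretch that is unique in the genome, beside 54.7% of all coding positions. For 50 nt the count was 190 (89.6%), beside 86.8%. The stretch of 50 nt that follows each of the 5 regions' most read starts is unique.

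Recurring starts at the other genes were few, and so were their internal TIF-clusters, from 0 at *UBQ2* and *UBQ4* to 28 at *UBQ5*. *UBQ11* had 3, of which that at positions 631 to 647, near the end of its last unit, was present in all 6 lists with 3 to 11 read pairs each. *UBQ14* had 1, at 495 to 498, in 4 lists, and *UBQ3* and *UBQ4* had none. *UBQ5* had 4 regions, and those at positions 252 to 257, 284 to 290 and 313 to 317, with 29, 28 and 52 read pairs over all lists, lie beyond the ubiquitin unit in the part that encodes S27a. *UBQ1* had 2 and *UBQ6* had 1.

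Short TIF-clusters, under 350 nt, were listed at the members in every list. There were 16 in *hen2-2* and 12 in wild type at 4 °C, and 19, 10, 10 and 13 in *hen2-2*, *spt16-1*, *ssrp1-2* and wild type at 22 °C. With the minimum scaled to the list total there were 16 and 3 at 4 °C and 7, 3, 5 and 4 at 22 °C, which turned round the order of the *hen2-2* lists. Most of them began inside the coding sequence or after it and ended past it, as at *UBQ10*, where such 3′ TIF-clusters numbered 6 and 4 at 4 °C and 4, 8, 5 and 9 at 22 °C in the same order of lists.

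Short TIF-clusters at the 5′ end of polyubiquitin genes were listed in both *hen2-2* lists and in no other list. In *hen2-2* at 22 °C, *UBQ10* had 3 of them, with 32, 4 and 3 read pairs and lengths of 129, 142 and 73 nt. In *hen2-2* at 4 °C it had 2, with 17 and 11 read pairs and lengths of 147 and 142 nt. They began 364 to 367 nt before the coding sequence, within 10 nt of the most used full-length start, and ended before the coding sequence. They made up 1.39% (0.961 to 2.00) of the *UBQ10* read pairs in *hen2-2* at 4 °C and 1.47% (1.08 to 2.00) in *hen2-2* at 22 °C. None of the 3748 read pairs of wild type at 4 °C, 4009 of *spt16-1*, 2636 of *ssrp1-2* and 3195 of wild type at 22 °C was of this kind, in lists that hold no TIF-cluster under 3 read pairs.

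The other polyubiquitin genes had 1 such TIF-cluster each in *hen2-2* at 22 °C, of 3 read pairs and 100 nt at *UBQ3*, 3 read pairs and 138 nt at *UBQ11*, and 3 read pairs and 128 nt at *UBQ14*. *UBQ14* also had 1 in *hen2-2* at 4 °C, of 5 read pairs and 126 nt. *UBQ4*, with 14 read pairs in *hen2-2* at 22 °C, had none. The extension genes had none in either *hen2-2* list, while *UBQ1* had 2 in wild type at 22 °C, of 4 and 3 read pairs and 286 and 241 nt, which ended inside the coding region.

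Such TIF-clusters were common in *hen2-2*. Of genes with at least 200 read pairs, 45.8% of 299 in *hen2-2* and 5.87% of 579 in wild type at 4 °C had a short TIF-cluster that starts before the coding sequence and ends before its end. At 22 °C 40.1% of 629 genes in *hen2-2*, 6.59% of 743 in *spt16-1*, 4.59% of 566 in *ssrp1-2* and 13.3% of 678 in wild type did. Among the members with as many read pairs, 2 of 5 in *hen2-2* and 0 of 7 in wild type at 4 °C did, and 4 of 7 in *hen2-2*, 0 of 7 in *spt16-1*, 0 of 7 in *ssrp1-2* and 1 of 7 in wild type at 22 °C. The members' shares in *hen2-2* were thus near the background. All 4 members in *hen2-2* at 22 °C were polyubiquitin genes. With TIF-clusters under 5 read pairs left out, only the one of 32 read pairs at *UBQ10* was left of the 6 in *hen2-2* at 22 °C, and all 3 were left at 4 °C.

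**Figure D5:**
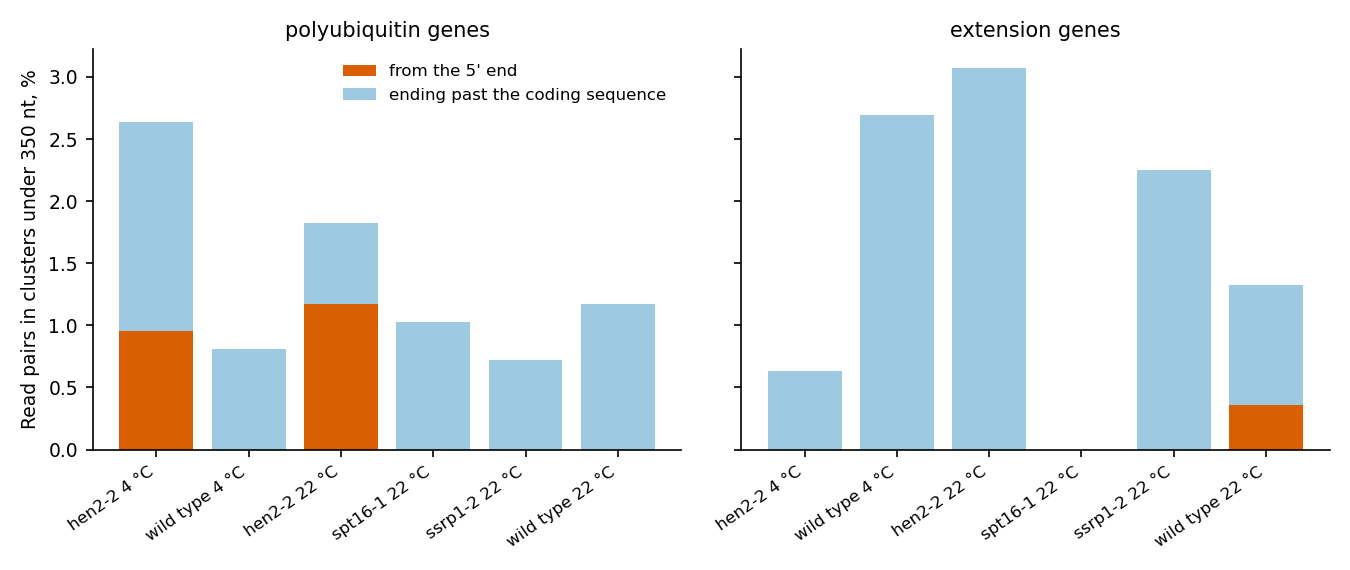
Percent of read pairs in TIF-clusters under 350 nt, per list, at the polyubiquitin genes (left) and the extension genes (right), divided into those from the 5′ end and those ending past the coding sequence. The part from the 5′ end is seen at the polyubiquitin genes in both *hen2-2* lists only (0.958% at 4 °C and 1.17% at 22 °C), and at the extension genes in wild type at 22 °C only (0.356%).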

How the data were processed

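The deposited values are counts of read pairs per TIF-cluster. Per their methods, the authors trimmed adapters and molecular identifiers, aligned reads to TAIR10 with STAR 2.6.1c, kept unique alignments, removed PCR copies, pooled the 2 libraries of a group, joined read pairs within 20 nt at both ends, and kept clusters of at least 3 read pairs with a TSS-seq start and no run of genomic As at the 3′ end. No normalization was applied. The list totals, 410655 to 924907 read pairs, set the precision. TSS-seq samples are not analysed here.

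Clusters were assigned to the coding gene with the largest overlap on the strand (NCBI RefSeq copy of Araport11 on TAIR10.1, whose chromosomes have the lengths of TAIR10) and divided by the span of the coding sequence over isoforms. Coordinates are 1-based. Levels (RPM) are read pairs per 1000000 of a list's total. Intervals are Wilson 95% intervals for shares and exact conditional binomial intervals for ratios. A gene was called past 2-fold with at least 30 read pairs in the larger list, and a gene at 0 in the other list counted as called. Named are all 9 members, the fixed ubiquitin and enzyme loci past 2-fold, and the 3 genes most like the polyubiquitin sum. Short means under 350 nt. Sequences are from RefSeq's TAIR10.1. Members and lists were chosen with earlier results of these data known. Alternatives were another scale, higher cluster minimums, assignment by start, the first isoform, a 20-nt tolerance, 200 nt as the short limit, 1.5-fold and another gene minimum. The functions were tested on simulated data. Intervals were computed with SciPy 1.17.1 and statsmodels 0.14.6 under Python 3.11.15.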

Additional observations from a re-analysis of the deposited data

Results flagged for a closer look

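*UBQ3* changed in opposite directions in *hen2-2* relative to wild type at the 2 temperatures, beyond counting error. Its log2 ratio of *hen2-2* over wild type was 0.84 at 22 °C (421 read pairs in *hen2-2* and 249 in wild type) and -0.56 at 4 °C (269 read pairs in *hen2-2* and 668 in wild type), a difference of 1.41. The difference itself was not tested, because each list pools its libraries. *UBQ3* is 1 of 8 members looked at in this way, and the wild-type list at 22 °C, the lowest of the 6 for *UBQ3*, enters the ratio at 22 °C only.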

How the results depend on the processing

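No paired analysis was possible because each list pools its 2 libraries, and leaving out each replicate could not be run for the same reason. Under the alternatives, 153 values of totals, shares and counts stayed within counting error, or within 1.5 times for counts, and 75 moved further. Of the log2 ratios of members, 190 stayed and 2 moved. No ratio whose interval leaves out 1 changed sign, while *UBQ6* in *hen2-2* over wild type at 22 °C (log2 -0.04) became 0.02 and 0.01, and *UBQ14* in *hen2-2* over wild type at 4 °C (0.02) became -0.08, with the minimums per TIF-cluster given below. Assigning TIF-clusters by their start, the coding sequence of the first isoform and a tolerance of 20 nt moved none, and scaling by size factors moved 1. The depth of the shallowest list, 410655 read pairs in *hen2-2* at 4 °C, and the minimum of 3 read pairs limit what is listed.

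With 1.5-fold in place of 2-fold, 3 members passed in *hen2-2* over wild type, 3 in *spt16-1*, 1 in *ssrp1-2* and 4 in *hen2-2* at 4 °C over 22 °C. In *spt16-1* over wild type, 2 members passed with the minimum per TIF-cluster scaled to the list total, where *UBQ2* joined *UBQ3* at a log2 ratio of -1.07, and 2 passed with at least 1 read pair in both lists, where *UBQ4* joined. In *hen2-2* at 4 °C over 22 °C, 1 passed with size factors and 1 with TIF-clusters of at least 5 read pairs. With the scaled minimum the log2 ratio of *UBQ10* was 0.44 for *hen2-2* at 4 °C over 22 °C and -0.25 for *hen2-2* over wild type at 4 °C.

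The values below follow the order *hen2-2* and wild type at 4 °C, then *hen2-2*, *spt16-1*, *ssrp1-2* and wild type at 22 °C, unless lists are named. With TIF-clusters under 5 read pairs left out, all 9 genes took 10527, 10981, 7746, 8095, 7780 and 7800 RPM. The full-length share of polyubiquitin genes was then 95.57%, 94.55%, 95.97%, 94.98%, 98.07% and 94.33%, and their internal share 3.155%, 5.446%, 3.226%, 5.015%, 1.932% and 5.673%. For the extension genes of *hen2-2* and wild type at 4 °C, *spt16-1* and wild type at 22 °C these shares were 98.94%, 97.63%, 97.15% and 98.38%, and 1.062%, 2.374%, 2.853% and 1.615%. Short TIF-clusters numbered 5 in wild type at 4 °C and 9, 6, 6 and 4 at 22 °C, of which 1 in *hen2-2* lay at the 5′ end of a polyubiquitin gene.

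The scaled minimum was 3 read pairs in *hen2-2* at 4 °C, whose list stays as deposited, 6 in wild type at 4 °C, *hen2-2* and *ssrp1-2*, and 7 in *spt16-1* and wild type at 22 °C. It leaves the depths themselves unequal. The sums of the other 5 lists were 11206, 7941, 8386, 7994 and 8154. The polyubiquitin shares were 95.32%, 96.56%, 96.56%, 98.32% and 95.39% full length, and 4.678%, 2.627%, 3.445%, 1.676% and 4.606% internal. The extension shares of wild type at 4 °C, *hen2-2*, *spt16-1* and wild type at 22 °C were 98.1%, 95.14%, 98.31% and 98.63%, and 1.897%, 4.432%, 1.69% and 1.366%. Short TIF-clusters numbered 3, 7, 3, 5 and 4, with 1 at the 5′ end of a polyubiquitin gene in *hen2-2* at 22 °C. With 200 nt as the short limit there were 8, 0, 9, 5, 3 and 4. The cause of these shifts was not tested beyond the fewer TIF-clusters that each alternative keeps.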
